A study of Mus musculus with 20 samples.

Results

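The postsynaptic scaffold and adhesion genes are 31 genes whose proteins build, anchor or connect the receiving side of a synapse. They were chosen by gene symbol and make up 31 of the 48709 genes in the deposited count table. Hippocampal RNA was sequenced from 20 young adult C57BL/6 mice, given as C57BL/6J in the study's methods. They formed 4 groups of 5, namely males and females after gestational nPM and the controls of each sex. The nPM animals were born to dams that inhaled nanosized urban particulate matter (nPM), at a labelled 300 mg/m3 for 5 h on each of 3 days a week, starting on gestational day 2. The unit is written as micrograms in the study's methods, where the control dams breathed filtered air. The labels name no transgene and do not give the litter of each animal. The study's methods give 5 litters per exposure group, so some of the sequenced animals in each exposure group were littermates. Females were aged 17.71 to 18.29 weeks and males 18.57 to 19.14 weeks, so sex and age cannot be told apart. The study's methods also describe injections of EdU, a label for dividing cells, in males and then in all animals, and whether the sequenced females received it is not clear from that text. If they did not, EdU and sex cannot be told apart either.

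At an excitatory synapse, receptors are held opposite the release site by a layered scaffold called the postsynaptic density. MAGUK proteins (the Dlg genes) bind receptors, Dlgap proteins link the MAGUKs to the Shank proteins, and Homer proteins join Shank to metabotropic glutamate receptors. CaMKII, a kinase activated by calcium and calmodulin, is abundant in this layer and is known for its part in long-term potentiation in the hippocampus. Neuroligins and Lrrtm proteins reach across the cleft to bind neurexins, which sit on the presynaptic side, and gephyrin (Gphn) is the scaffold of inhibitory synapses. Neurexins are therefore the presynaptic partners in this set and not postsynaptic proteins themselves.

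Total counts per animal ran from 19092067 to 38663408, and all 31 genes passed the filter on low counts that left 19797 genes for testing. The lowest count of any member in any animal was 378 and the highest was 71185, so counting error was small for every member. The RNA was a whole-tissue extract, in which fewer cells of a type and less RNA per cell cannot be told apart. Markers of CA1, CA3 and dentate granule neurons were above 0 in every sample, as the labelled tissue requires. Choroid plexus markers (8 genes, including Ttr) summed to between 47.0 and 8238 CPM (counts scaled to the library total with TMM factors) in females, with a median of 188.5, and to between 34.9 and 7358 CPM in males, with a median of 1902. The summed counts of Y-linked genes and of Xist placed all 10 females apart from the males. Of the 31 members, 20 overlap another annotated gene, 10 of them on the same strand, and the counting was not stated to use strand. A count over such a gene may include reads of its neighbor.

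Base composition differed widely among the members and returns below beside the sex difference, so short coding stretches of 3 of them are shown here. Shank1 and Shank3 encode large scaffolds with coding sequences of 63.6% and 64.6% G and C, while Nlgn1, a neuroligin of excitatory synapses, has 45.9%. Each line below holds 150 bases from the longest coding exon, taken where the G and C content was nearest to that of the whole coding sequence. G and C are in capitals. The stretches were picked after the values of the genes had been seen and are reference sequence (mm10, Gencode release 21), not reads. They lie in exon 24 of 25 of Shank1 (chr7:44351573-44351722, plus strand), exon 21 of 22 of Shank3 (chr15:89548355-89548504, plus strand) and exon 8 of 8 of Nlgn1 (chr3:25434163-25434312, minus strand).
Shank1: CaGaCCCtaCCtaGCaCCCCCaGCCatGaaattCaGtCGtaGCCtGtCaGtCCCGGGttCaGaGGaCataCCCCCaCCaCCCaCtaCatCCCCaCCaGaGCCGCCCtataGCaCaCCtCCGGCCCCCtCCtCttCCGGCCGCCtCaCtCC
Shank3: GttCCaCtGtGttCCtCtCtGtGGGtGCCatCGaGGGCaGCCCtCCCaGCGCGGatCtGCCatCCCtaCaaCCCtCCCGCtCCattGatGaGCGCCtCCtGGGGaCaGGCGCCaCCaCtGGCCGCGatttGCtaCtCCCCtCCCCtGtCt
Nlgn1: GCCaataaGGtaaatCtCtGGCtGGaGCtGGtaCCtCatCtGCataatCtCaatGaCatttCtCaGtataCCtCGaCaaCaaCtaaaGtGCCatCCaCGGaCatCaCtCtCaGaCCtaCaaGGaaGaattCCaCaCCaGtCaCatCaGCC

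The members were well expressed. Their levels are given as RPKM, counts scaled by the deposited gene length and by the total of the library, which allows genes to be compared. The median member stood at 17.3 RPKM against 3.36 RPKM over all genes tested, and the lowest member was still at the 66th percentile. Camk2a, the alpha subunit of CaMKII, was the most abundant at 229.6 ± 59.8 RPKM (SD, n = 20), followed by Nrgn (neurogranin, which binds calmodulin) at 141.4 ± 20.6 and Camk2b at 90.9. Ppp1r9b (spinophilin, which brings protein phosphatase 1 to spines) reached 71.9 RPKM and Dlg4, which encodes PSD-95, reached 48.9. Of the 30 pairs of neighbors in the order of levels, only 4 were separated in all 20 animals: Camk2a over Nrgn, Nrgn over Camk2b, Ppp1r9b over Dlg4, and Dlg4 over Dlg3. The order of the remaining neighbors changed between animals.

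**Figure D1:**
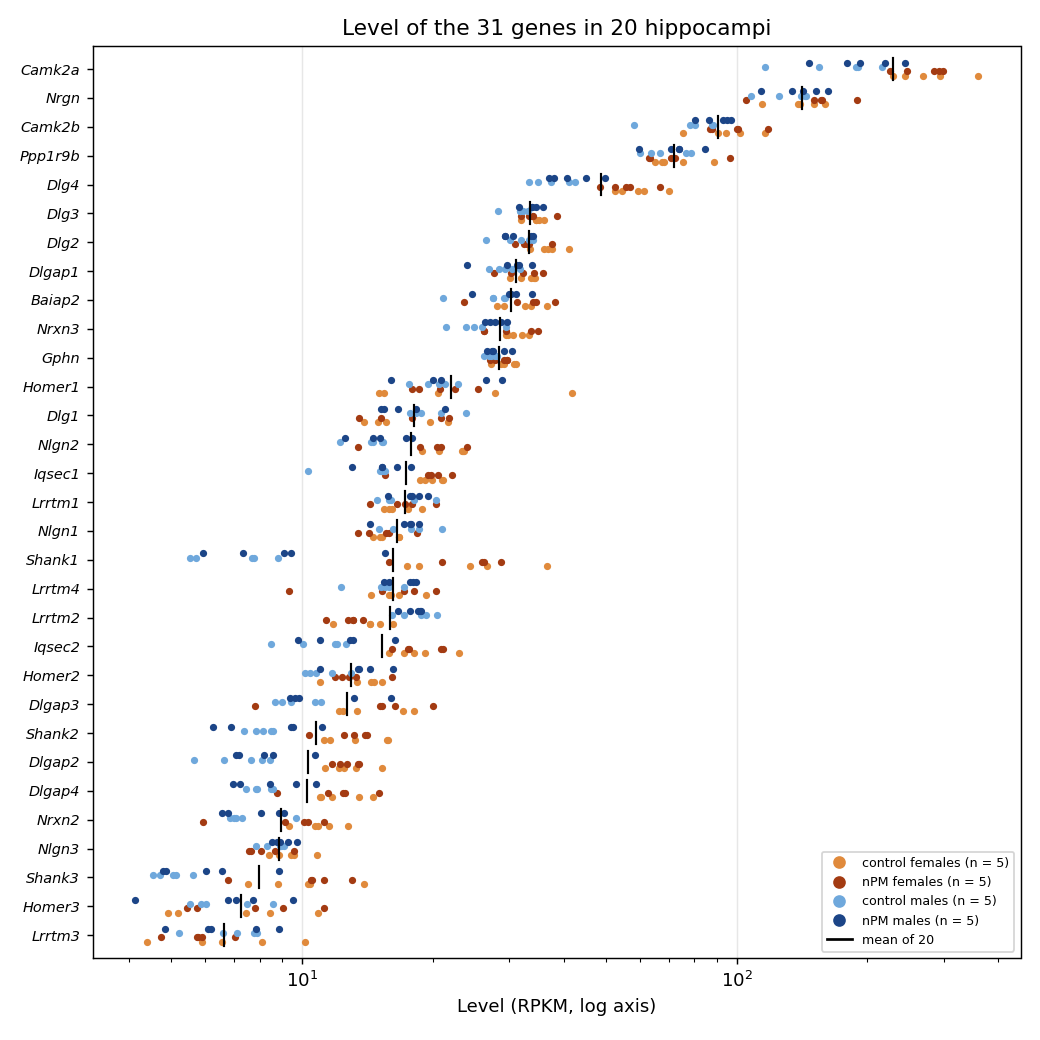
Level of each of the 31 genes (RPKM, log axis) in 20 animals, colored by group of 5, with a black line at the mean of 20. Camk2a lies highest with a mean of 229.6 and Lrrtm3 lowest at 6.64, and the males of Shank1 lie to the left of its females.

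Levels also differed within families. Among the MAGUKs, Dlg4 stood above Dlg3 (33.5 RPKM), Dlg2 (33.3) and Dlg1 (18.1). Over all animals Shank1 averaged 16.2 RPKM, Shank2 10.8 and Shank3 7.97. Each was lower in males, as given below, and the order of Shank1 and Shank2 differed between the sexes. In females Shank1 stood at 24.2 ± 6.21 RPKM and Shank2 at 13.2 ± 1.81, and in males they stood at 8.29 ± 2.90 and 8.37 ± 1.43 (SD, n = 10 each). Homer1 (22.0) exceeded Homer2 (13.0) and Homer3 (7.25), and the counts do not tell the short activity-induced Homer1 form from the long ones. Among the Dlgap genes, Dlgap1 (31.1) was highest, with Dlgap2 and Dlgap4 both at 10.3. Nlgn2, the neuroligin of inhibitory synapses, had 17.8 RPKM over all animals beside 16.5 for Nlgn1 and 8.85 for Nlgn3. The order of the former pair turned with sex, with means of 20.7 RPKM for Nlgn2 and 15.6 for Nlgn1 in females and of 14.9 and 17.4 in males. Lrrtm1 averaged 17.3 RPKM over all animals and Lrrtm2 15.9, but in males Lrrtm2 (18.2) stood above Lrrtm1 (17.5), where in females it stood below (13.6 against 17.0). Lrrtm3 was the lowest of all members at 6.64, while Nrxn3 (28.6) stood above Nrxn2 (8.96).

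The spread between animals differed by over 10 times among the members. Gphn varied least, with a coefficient of variation of 5.11% over the 20 animals, followed by Dlg3 at 6.42%. Shank1 varied most, at 58.0%, and its values are given by sex below.

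The first question of the study was whether gestational nPM changed hippocampal RNA in adult offspring. For these 31 genes no difference passed the threshold of p under 0.005 in limma-voom, in the fit of both sexes, in males, in females or in the test of whether the effect differed between the sexes. The share of all 19797 genes that passed was 0.141%, 0.207%, 0.0859% and 0.217% in these fits, so a count of 0 of 31 is what the background rate gives. No member passed an adjusted p under 0.05 either, and neither did any of the genes tested (0%); in the fit of both sexes the adjusted p was 0.9998 for every member. At an unadjusted p under 0.05, 0 members passed in both sexes (background 2.1%), 1 in males (4.28%), 0 in females (2%) and 0 in the interaction (3.79%). In no member did the 5 nPM animals of a sex separate fully from its 5 controls, which was so for 0.662% of all genes in males and 0.349% in females.

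The estimates of the fit of both sexes were small and bounded. With both sexes, fitted log2 differences ran from -0.14 (Lrrtm3) to 0.15 (Shank3), and every 95% confidence interval lay between -0.41 and 0.49. The interval reached 0.18 to either side of the estimate at the median member. Differences of 2-fold, a log2 value of 1, were thus outside the interval of every member in that fit. These intervals take the animals as independent, though some were littermates. Within a sex the intervals were wider, lying between -0.48 and 0.81 in males and between -0.63 and 0.67 in females. Those of the interaction lay between -0.85 and 1.04, so they did not all leave out a 2-fold difference between the sexes' effects. In the fit of both sexes 19 of 31 estimates were above 0 (47% of all genes). In males 25 of 31 were above 0, with a median of 0.07, and in females 12 of 31 were above 0, with a median of -0.02. Over all genes tested the medians were 0.00 in males and -0.01 in females, and 49.6% and 45.9% of genes were above 0. The difference between the sexes' effects had a median of 0.12 over the members, against 0.01 over all genes, and 26 of 31 were above 0 (52.5% of all genes); no member reached p under 0.05. The members are not independent of each other, so these counts of signs carry no test.

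**Figure D2:**
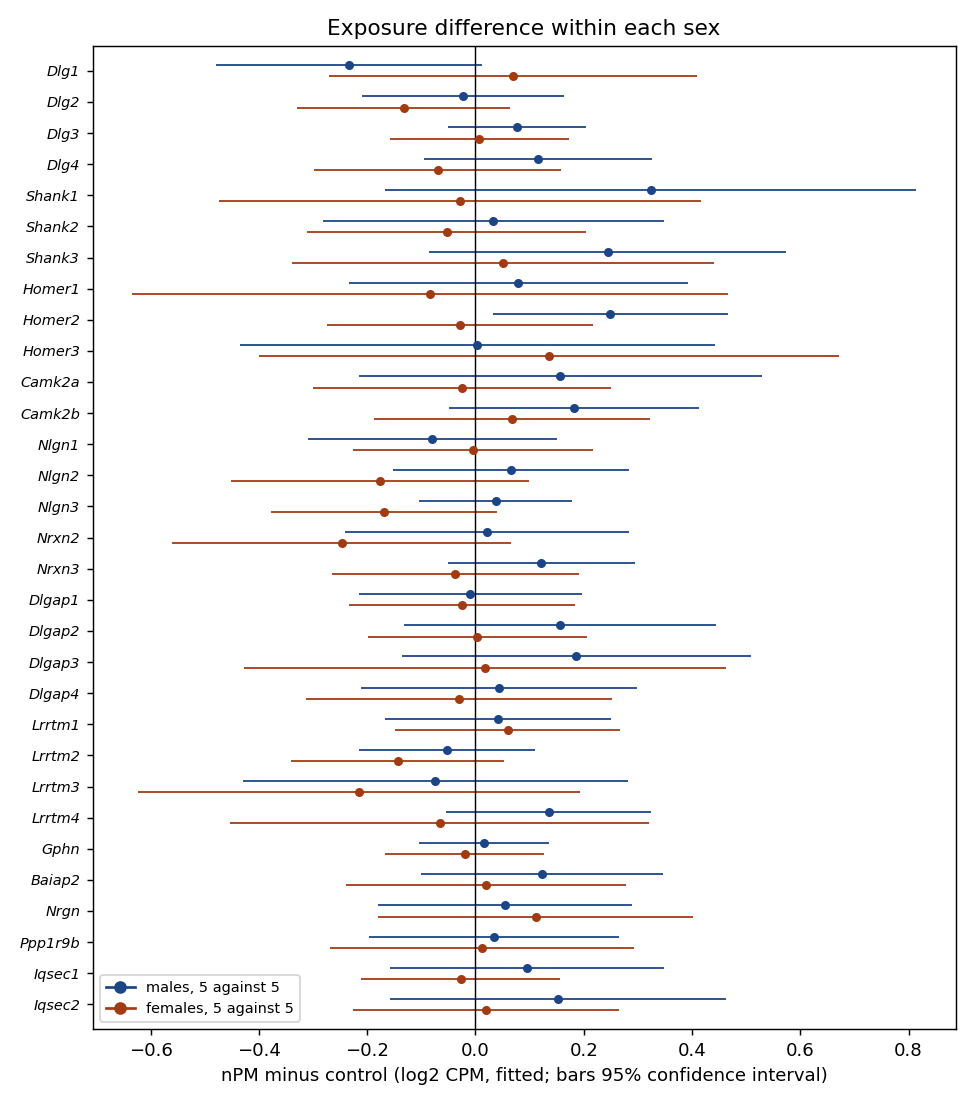
Fitted difference between nPM and control animals (log2 CPM) for each gene in males and in females (5 against 5 each), with bars for the 95% confidence interval. All intervals but that of Homer2 in males cross 0.

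Homer2, an adaptor of the Homer family, had the smallest p of any member within a sex. In control males it stood at 134, 165, 154, 137 and 136 CPM, and in nPM males at 138, 170, 174, 183 and 202 CPM. The nPM males were higher on average, but 1 of them lay within the range of the controls. The log2 difference was 0.25 (SE 0.10), with p = 0.0280 and an adjusted p of 0.963 in limma-voom, and an exact two-sided permutation test gave p = 0.0476. In females the controls had 132, 169, 180, 190 and 180 CPM and the nPM animals 145, 158, 202, 169 and 158 CPM, which overlap throughout. The difference between the sexes' effects was 0.28 (SE 0.16), with a limma adjusted p of 0.987. Without nPM male 1, the difference in males passed the threshold of p under 0.005 in limma-voom, with an adjusted p of 0.985.

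For the scaffolds, Dlg4 and Shank3 are given in full whatever their values. Dlg4 stood at 174, 189, 213, 176 and 218 CPM in control males and at 187, 184, 207, 228 and 246 CPM in nPM males. In females it was 248, 306, 288, 268 and 346 CPM in controls and 269, 287, 331, 253 and 247 CPM after nPM. Its exposure difference in both sexes was 0.02 on the log2 scale, with an interval from -0.13 to 0.18. Shank3, the Shank whose human gene is linked to Phelan-McDermid syndrome, had 43.7, 45.3, 47.6, 40.8 and 51.5 CPM in control males and 42.2, 43.2, 54.8, 59.1 and 78.3 CPM in nPM males. Its females had 63.4, 92.3, 90.6, 77.5 and 123 CPM as controls and 96.5, 94.7, 116, 62.7 and 87.9 CPM after nPM. The groups of each sex overlapped, and the difference in both sexes was 0.15, with an interval from -0.11 to 0.40.

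Homer1 and Camk2a both had wide spread between animals. Homer1 had 154, 440, 154, 288 and 215 CPM in control females and 189, 239, 188, 278 and 205 CPM in nPM females. In males it had 227, 226, 250, 207 and 191 CPM as controls and 167, 210, 224, 281 and 301 CPM after nPM. Its difference in both sexes was 0.00, with an interval from -0.33 to 0.32. Camk2a had 1620, 1824, 2142, 1979 and 2664 CPM in control females and 2049, 2254, 2171, 1760 and 1737 CPM in nPM females. In males it had 908, 1419, 1478, 1165 and 1664 CPM as controls and 1082, 1336, 1675, 1450 and 1807 CPM after nPM. Its difference was 0.07, with an interval from -0.17 to 0.30.

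Of the adhesion and inhibitory genes, Nlgn1 had 195, 196, 218, 221 and 202 CPM in control females and 175, 212, 213, 259 and 181 CPM in nPM females. In males it had 295, 220, 259, 204 and 247 CPM as controls and 191, 239, 243, 252.4 and 229 CPM after nPM. The groups overlapped in both sexes and the difference was -0.04, with an interval from -0.20 to 0.11. Nlgn2 had 128, 136, 117, 108 and 135 CPM in control females and 105, 122, 138, 81.2 and 111 CPM in nPM females. In males it had 74.1, 85.0, 92.2, 84.4 and 91.5 CPM as controls and 86.6, 72.4, 85.8, 101 and 103 CPM after nPM. Here the difference was -0.06, with an interval from -0.23 to 0.12. Gphn was the tightest of all, with every animal between 89.8 and 105 CPM, and its exposure difference of 0.00 had the narrowest interval, from -0.08 to 0.08.

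Sex separated the members far more than exposure did. With exposure as a covariate, 12 of 31 passed p under 0.005 in limma-voom, against 31.1% of all genes tested. Males were lower in 11 of the 12, where 17.1% of all genes were called lower in males, and higher in 1, where the background was 13.9%. At an unadjusted p under 0.05, 15 members passed (48.4% of all genes). The share called lower in males is thus above its background and the share called higher is below it, without a test of either. The median member differed by -0.13 on the log2 scale, against 0.02 over all genes, and 9 of 31 were above 0 (52.2% of all genes). An adjusted p under 0.05 was reached by 14 members, against 40.4% of all genes, the added pair being Dlgap3 (lower in males) and Nlgn1 (higher in males).

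**Figure D3:**
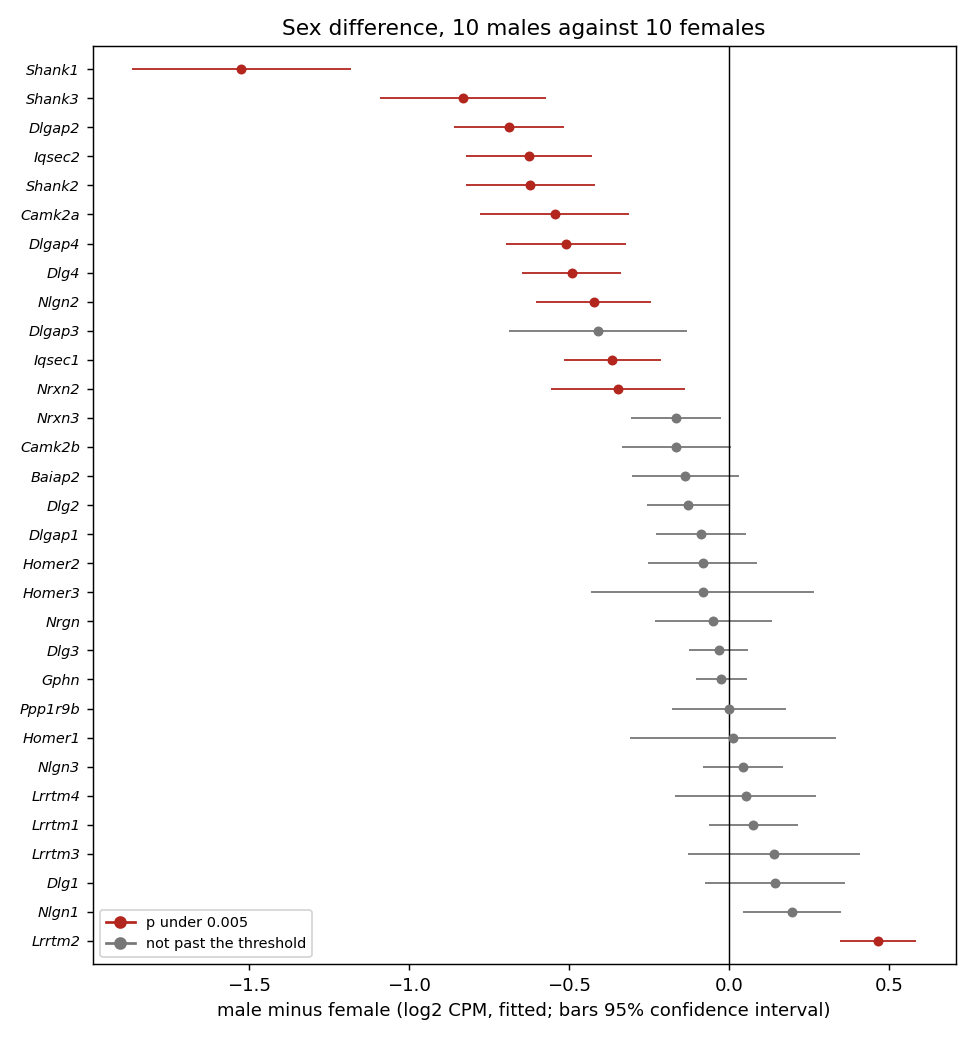
Fitted difference between 10 males and 10 females (log2 CPM) for each of the 31 genes, with bars for the 95% confidence interval and red for p under 0.005. Shank1 lies farthest below 0 at -1.52 and Lrrtm2 is the only red point above 0.

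The Shank scaffolds differed most, and all 3 were lower in males. Shank1 lies at chr7:44310253-44360572 (mm10, plus strand) and overlaps 2 other annotated genes, 1 of them on its strand, while Shank3 lies at chr15:89499623-89560261 (plus strand). Shank1 had 174, 281, 249, 193 and 383 CPM in control females and 214, 276, 301, 174 and 260 CPM in nPM females. Control males had 60.9, 82.6, 84.2, 60.6 and 95.7 CPM and nPM males 76.2, 62.1, 97.8, 100 and 162 CPM. Every male lay below every female, which was so for 3.15% of all genes. The mean was 88.2 ± 29.9 CPM in males and 250.5 ± 65.0 CPM in females (SD, n = 10 each), a log2 difference of -1.52 (SE 0.16, adjusted p = 2.83e-06 in limma-voom). For Shank3, with the values given above, the difference was -0.83 (SE 0.12, adjusted p = 3.93e-05), and 1 nPM male at 78.3 CPM overlapped the females. Shank2 had 78.8 to 94.4 CPM in control males, 65.6 to 117 in nPM males, 113 to 168 in control females and 115 to 148 in nPM females, with a difference of -0.62 (SE 0.10). Shank1 made up 45.4% to 55.3% of the summed Shank RPKM in females and 30.6% to 43.6% in males, ranges that did not overlap.

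The Dlgap scaffolds, which link MAGUKs to Shanks, split. Dlgap2 (chr8:14095865-14847680, plus strand) had 66.1, 82.1, 74.9, 73.8 and 93.5 CPM in control females and 80.5, 79.1, 82.6, 75.4 and 70.9 CPM in nPM females. Its males had 36.3, 47.5, 53.9, 41.1 and 51.4 CPM as controls and 43.6, 43.4, 51.2, 53.6 and 65.2 CPM after nPM. All males were again below all females, and the difference was -0.69 (SE 0.08, adjusted p = 7.01e-06 in limma-voom). Dlgap4 was lower in males by a log2 difference of -0.51, with 58.6 to 90.1 CPM in males and 77.3 to 127 CPM in females. Dlgap3 (-0.41) missed the threshold of p under 0.005 but had an adjusted p of 0.0185 in limma-voom, and Dlgap1, the most abundant of the family, differed by -0.09 with an interval from -0.23 to 0.05.

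Of the MAGUKs only Dlg4 (chr11:70017085-70045532, plus strand) passed. Its 10 males (173.5 to 245.7 CPM) all lay below its 10 females (246.6 to 346.4 CPM), by a narrow margin, with a log2 difference of -0.49 (SE 0.07, adjusted p = 4.31e-05 in limma-voom). Dlg1 (0.14), Dlg2 (-0.13) and the X-linked Dlg3 (-0.03) did not pass. None of the Homer genes passed either, with differences from -0.08 to 0.01. Of the CaMKII subunits, Camk2a was lower in males, at 1398 ± 283 CPM against 2020 ± 308 in females (SD, n = 10 each), by -0.55 (SE 0.11, adjusted p = 0.000648), with the sexes overlapping. Camk2b differed by -0.16 and did not pass, with an interval from -0.33 to 0.01.

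Iqsec1 and Iqsec2, exchange factors for the small GTPase ARF6 found at the postsynaptic density, were both lower in males. Iqsec2, which is X-linked, had 114, 127, 131, 110 and 159 CPM in control females and 119, 147, 147, 118 and 115 CPM in nPM females. Males had 62.1, 84.9, 86.5, 71.1 and 91.1 CPM as controls and 67.8, 76.6, 93.6, 91.2 and 114 CPM after nPM. Within controls and within nPM animals the sexes did not overlap, while the highest nPM male lay above the lowest control female. The difference was -0.63 (SE 0.09, adjusted p = 4.16e-05 in limma-voom). Iqsec1 differed by -0.37 (SE 0.07). The other X-linked members, Dlg3 and Nlgn3, had differences of -0.03 and 0.04 and did not pass. Nrgn (-0.05), Ppp1r9b (0.00), Baiap2 (-0.14), a spine protein that binds Shank, and Gphn (-0.02) did not pass.

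Among adhesion genes the directions differed. Lrrtm2, a postsynaptic ligand of neurexins at excitatory synapses, was the only member called higher in males. It had 77.1, 92.1, 83.7, 80.2 and 66.1 CPM in control females and 75.7, 65.1, 73.9, 75.5 and 69.9 CPM in nPM females. Its males had 121, 98.2, 114, 108 and 94.0 CPM as controls and 104, 106, 96.3, 107 and 99.4 CPM after nPM. Its gene lies within Ctnna1, on the opposite strand. All males lay above all females, which was so for 1.67% of all genes, with a difference of 0.47 (SE 0.06, adjusted p = 7.96e-06 in limma-voom). Nlgn2 was lower in males by -0.42 (SE 0.09) and Nrxn2 by -0.35 (SE 0.10). Nlgn1 was higher by 0.20 (SE 0.07), with an adjusted p of 0.0386 in limma-voom, short of the threshold of p under 0.005. Nrxn3 (-0.17), Nlgn3, Lrrtm1 (0.08), Lrrtm3 (0.14) and Lrrtm4 (0.05) did not pass.

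**Figure D4:**
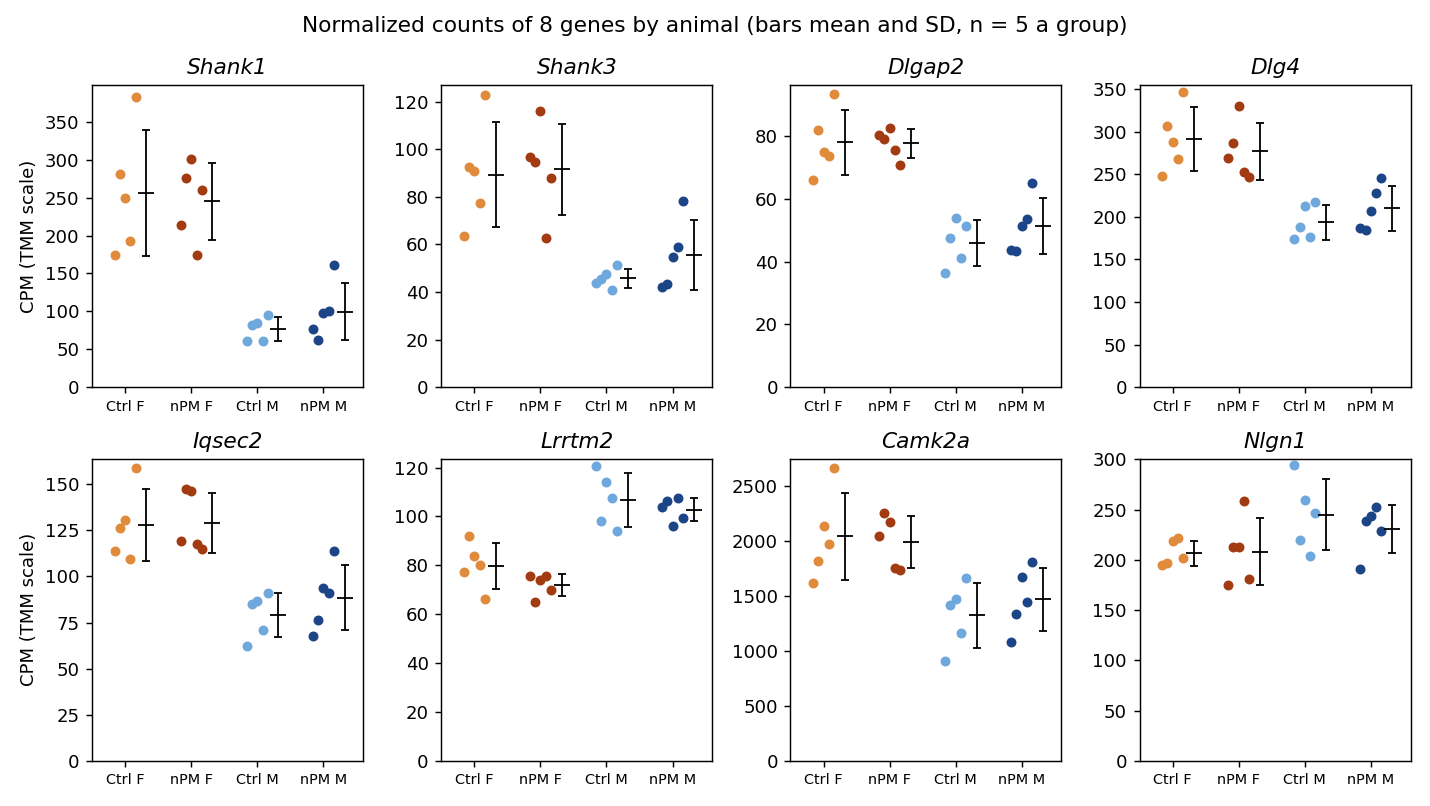
Normalized counts (CPM, TMM scale, axes from 0) of 8 genes in each animal, by group of 5 (Ctrl, control; F, females; M, males), with bars for mean and SD. Males lie below all females in Shank1, Dlgap2 and Dlg4 and above all females in Lrrtm2, and control and nPM animals of a sex overlap in all 8 genes.

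The sexes were also compared within each exposure group. In the fit of the 10 controls 13 members passed p under 0.005, and in that of the 10 nPM animals 7 did. The shares of all genes passing in these fits are not given here. Over all genes too, the sexes separated without overlap less often in nPM animals (11.2%) than in controls (19.8%). The lower count is therefore not read as a trait of the members. The share of counts on mitochondrial ribosomal RNA genes also separated the sexes in controls, at 9.16% to 11.44% in females and 11.47% to 11.92% in males, but not in nPM animals, at 10.2% to 13.3% in females and 9.38% to 11.8% in males. Its part in the sex difference was not tested. In the controls, the sexes did not overlap in 11 of 31 members (19.8% of all genes), and in the nPM animals in 5 of 31 (11.2%): Dlg4, Shank1, Dlgap2, Iqsec2 and Lrrtm2. An exact permutation test of 5 against 5, whose smallest possible p is 0.00794, reached that value for these 5 genes in both strata. The interaction of exposure and sex was past p under 0.05 in no member, so the sex difference was not shown to differ between controls and nPM animals. Camk2a, Nlgn2, Nrxn2, Dlgap4 and Iqsec1 did not pass in nPM animals alone.

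Base composition and length both differed at the median between the members called lower in males and those not called. The 11 members called lower in males had a median G and C content of 59.4% (46.8% to 62.4%) in their longest protein-coding transcript. Those not called had 49.3% (36.9% to 63.9%). Lrrtm2, the member called higher, had 38.4% and Nlgn1 38.9%. The median gene length was 8451 bases for the members called lower and 6147 bases for those not called. Over all genes tested, the median sex difference was 0.04 on the log2 scale below 45% and 0.00 at 60% and above. The members had medians of 0.10 and -0.41 in these ranges. Between them the fall was not steady, with -0.09 at 45 to 50%, -0.37 at 50 to 55% and -0.16 at 55 to 60%. Each sample was also corrected for G and C content and length, a step added after the data had been seen. After this correction 14 members passed p under 0.005 in limma-voom. The share of all genes passing after it is not given here, so this count is not compared with that of the main fit. Shank1 differed by -1.41, Shank3 by -0.74, Dlgap2 by -0.64 and Lrrtm2 by 0.59. Nlgn1 and Dlgap3 passed in that fit, at 0.38 and -0.39. Nrxn2, with 62.4% G and C, moved most of the called members in proportion, from -0.35 to -0.21, and still passed. Homer3 and Ppp1r9b, with 60.2% and 62.3%, did not differ past the threshold in either fit.

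**Figure D5:**
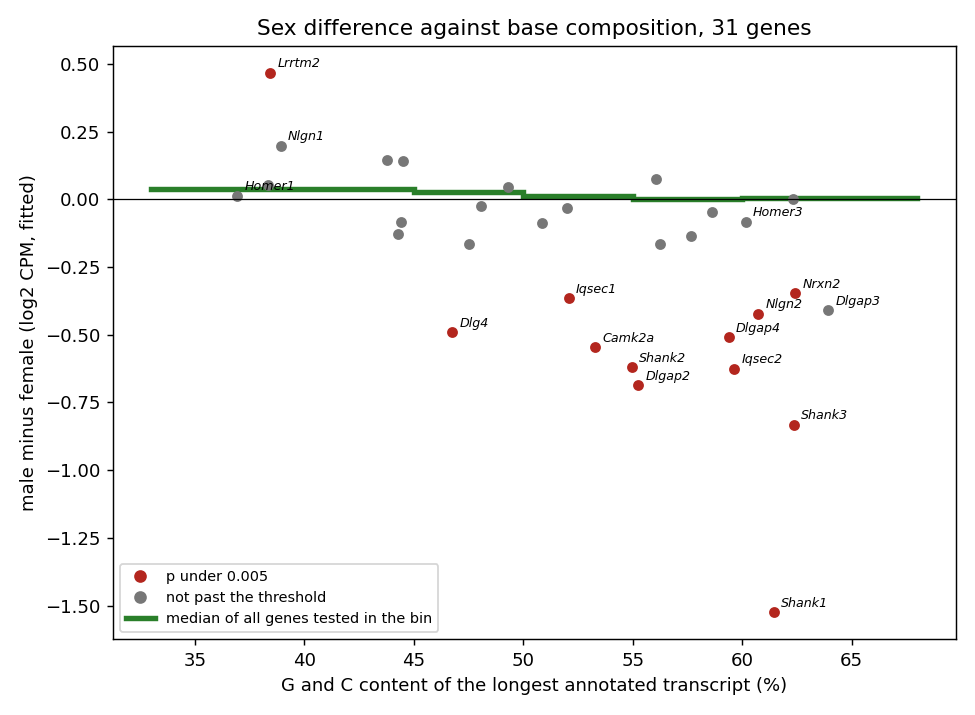
Fitted sex difference (log2 CPM) against the G and C content of the longest annotated protein-coding transcript for the 31 genes, red for p under 0.005. Green lines give the median of all genes tested in each range of G and C content. Members below 0 lie mostly above 50%, while the green line stays between 0.00 and 0.04.

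Animals also differed in how counts depended on G and C content. The slope of log2 counts over all genes per 10% of G and C was -0.41 in nPM female 4, the shallowest library, and between -0.17 and 0.22 in the other 19. Without nPM female 4 and control male 1, a choice made after the data had been seen, 14 members passed p under 0.005 for sex. Control male 1, at -0.13, did not have the next steepest slope. Control male 4 (0.22) and control female 3 (-0.17) were steeper and were kept. The share of all genes passing in that fit is not given here. Some cell type markers differed by sex in limma-voom, where 31.1% of all genes passed p under 0.005 and 40.4% an adjusted p under 0.05. The summed endothelial markers (6 genes) were 153.7 to 222.6 CPM in females and 129.7 to 161.1 in males, with Flt1, Pecam1 and Slco1a4 lower in males. In the other direction, 1 of the 6 was higher in males (0.23) at an unadjusted p under 0.05 in limma-voom. Microglial markers (7 genes) summed to 211.7 to 321.6 CPM in females and 274.8 to 321.5 in males, with P2ry12 and Aif1 among those higher in males. Of 7 astrocyte markers, Aqp4, Gja1 and Aldoc were higher in males at p under 0.005. At an adjusted p under 0.05 there were 5, 4 higher and 1 lower (-0.18), and the summed astrocyte level was lower in males at the median (6057 against 6492 CPM). Of 7 oligodendrocyte markers all had estimates above 0, of which Opalin passed p under 0.005 and 2 an adjusted p under 0.05. Of the 7 dentate granule and the 7 interneuron markers, 0 passed p under 0.005 and 1 of each list, higher in males, passed an adjusted p under 0.05. The counts of the oligodendrocyte, dentate granule and interneuron lists are thus below the shares over all genes. No marker of CA1, CA3, neocortex, striatum, thalamus or choroid plexus passed either threshold. The summed choroid plexus level, given above, was also unequal between the sexes at the median. The part of these markers and of base composition in the members' sex difference was not tested beyond the correction above.

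The other genes of the pathway were counted on 5 lists. In the exposure fits 0 genes of any list passed p under 0.005. The smallest p in the fit of both sexes belonged to Lin7a (-0.20) among 30 scaffold partners and receptor anchors, Camk2n2 (-0.30) among 30 postsynaptic enzymes and spine regulators, Cadm1 (-0.28) among 39 other adhesion genes and Vamp2 (-0.19) among 25 presynaptic genes, each with an adjusted p of 0.9998 in limma-voom. The values in parentheses are log2 differences.

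For sex the counts differed between the lists, without a test, beside backgrounds over all genes of 17.1% lower in males and 13.9% higher. Of the 30 scaffold partners, 7 were lower in males and 3 higher. Those lower included Shisa7 (-0.57), Prrt1 (-0.56), Sipa1l1 (-0.46), Cttnbp2 (-0.45), Magi2 (-0.39) and Cnksr2 (-0.29), and those higher were Lin7c (0.46), Lin7a (0.25) and Abi2 (0.18). Of the 30 enzymes and regulators, 9 were lower, among them Iqsec3 (-0.60), Git1 (-0.50), Synpo (-0.43) and Kalrn (-0.42), a guanine nucleotide exchange factor for Rac in spines. The lower ones also included Arhgef7, Tiam1, Rasgrf1 and Add2. The 8 that were higher included Pcp4 (0.58), Calm2 (0.38), Camk2n1 (0.35), Psd3 (0.31), Calm3 (0.23) and Ppp3r1 (0.21). Of the 39 other adhesion genes, 6 were lower (Igsf9b at -0.85, Mdga1 at -0.53, Ephb2, Adgrl1, Mdga2 and Clstn2) and 5 higher (Flrt3 at 0.39, Cadm4, Flrt2, Slitrk2 and Slitrk4). Both counts of the scaffold partners and both of this adhesion list are near what the backgrounds give.

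Of the 18 inhibitory postsynapse genes 5 were higher in males and 0 lower. They included the glycine receptor subunit gene Glrb (0.37), Gabarap (0.34), which encodes a receptor-trafficking protein, and the GABA-A receptor subunit gene Gabrb2 (0.26). Of the 25 presynaptic genes 7 were lower in males and 0 higher, among them the active zone genes Bsn (-0.80), Unc13a (-0.47), Pclo (-0.32) and Ppfia3 (-0.29), with Syn1 (-0.55) and Vamp2 (-0.31). The medians were 0.15 for the inhibitory list and -0.04 for the presynaptic list, against 0.02 over all genes. The backgrounds are those given for the members, 17.1% lower and 13.9% higher.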

How the data were processed

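Ribosomal RNA was depleted. Per the submitters' processing notes and the study's methods, HISAT2 (build mm10) and featureCounts 1.5.0-p3 (Gencode release 11) were used. The deposited values are whole-number counts for 48709 genes, without normalization. A deposited column of mean RPKM, computed by the authors, was recomputed from the counts and differed by at most 4.91e-11. Whether strand was used is not given in the sources used here.

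The 31 genes and the gene lists were chosen with earlier results of these data known. Genes were kept by filterByExpr (minimum count 10, minimum total 15), which left 19797. TMM factors (edgeR 4.0.16) and limma-voom (limma 3.58.1, R 4.3.3, offset 0.5) were used in 5 fits: exposure with sex as covariate, exposure in each sex, their interaction, and sex with exposure as covariate. Calls were p under 0.005, the study's own threshold, beside a Benjamini-Hochberg adjusted p under 0.05. Single genes were also compared by exact permutation of 5 against 5. Members named in full were those with the 6 smallest p of a fit among those under 0.05, and Dlg4, Shank3, Homer1, Camk2a, Nlgn1, Nlgn2 and Gphn. G and C contents came from Gencode release 21, for the longest protein-coding transcript of a gene or, where it had none, its longest transcript. Alternatives were edgeR's quasi-likelihood test, DESeq2 1.42.0, other normalizations and filters, sample weights, robust moderation, age, a replicate block and each animal left out. Replicate samples differed by 14.1 to 76.6 times counting noise in 40 pairs, so none was a copy of another. The litter of each animal is not in the labels, so p-values and intervals treat animals as independent, although some shared a litter. On simulated data with 200 genes changed 2-fold, the fits recovered 179 (both sexes), 157 (males), 152 (females), 116 (interaction) and 176 (sex), each over 19797 genes. Calls among the unchanged genes numbered 111, 79, 98, 88 and 91 in the same order, where 98.0 were expected. Recovery of changes smaller than 2-fold was not simulated. Some genes of the pathway and marker lists are counted but not reported here by name. Figures were drawn with matplotlib.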

Additional observations from a re-analysis of the deposited data

Results flagged for a closer look

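In 124 groups of 5 animals (31 genes in 4 groups), 1 animal lay far from the other 4 in 2 cases, where chance alone flags about 1 in 20 groups, or 6.2 of 124. In control males, Nrxn2 was highest in animal 5 (138.4 CPM, others 95.2 to 101.6), with a gap of 0.824 of the group's range. In control males, Iqsec1 was lowest in animal 1 (124.9 CPM, others 179.1 to 184.6), with a gap of 0.922 of the range. Both are past 0.71, the value for 5 samples. No member's exposure effect differed between the sexes past p under 0.005.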

How the results depend on the processing

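No exposure call appeared in any of the 12 alternatives to each exposure fit other than leaving out animals. Leaving out each animal gave 0 members in both sexes, in females and in the interaction, and 0 to 1 in males, the 1 being Homer2 without nPM male 1. For sex, 12 members became 7 in nPM animals alone, and the cause was not tested. The other alternatives gave 12 to 14, and leaving out each animal 11 to 14. The shares of all genes passing in these fits are not given here. Median differences, over animals left out, ran from 0.0032 to 0.050 (both sexes), 0.022 to 0.106 (males), -0.054 to 0.016 (females), 0.049 to 0.161 (interaction) and -0.149 to -0.092 (sex). The median in females turned to 0.0038 after correction for G and C content and length. Dlg4, Shank1, Shank2, Shank3, Dlgap2, Iqsec2 and Lrrtm2 passed in all 13 alternatives for sex and with each animal left out, while Nrxn2 passed in 10 of 20 fits that left out 1 animal. Replicate numbers do not pair the samples: of 30 same-numbered pairs 10 correlated above 0.1 (-0.416 to 0.283), and 6 of 20 samples correlated best with their own number. With the replicate block, 12 members passed for sex and 0 for each exposure fit. The median level was 17.3 RPKM on either scale. Each member had at least 378 counts in every animal.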
